A study of Mus musculus with 16 samples.

Results

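Lin28a, Lin28b, Trim71, Hmga1, Hmga2, Igf2bp1, Igf2bp2 and Igf2bp3 are genes of the Lin28 and let-7 axis, which sets the pace of development. They were chosen by gene name and found by symbol through the Entrez gene IDs of the count table. The 8 genes stood among 27179 gene IDs, and all 8 were among the 15785 genes that passed the filter on low counts. No threshold on a measured value entered the rule, but the list was drawn up by someone who had seen earlier genotype comparisons of these same counts. The tests below therefore describe each gene within a fit of all genes and give no support for the group as such. Total RNA of mouse hearts at embryonic day 10.5 was sequenced, 4 hearts of each of 4 genotypes: Ing4+/- Ing5-/- (1 allele of Ing4 and both of Ing5 lost), Ing4+/- Ing5+/+ (1 allele of Ing4 lost), Ing4+/+ Ing5-/- (both alleles of Ing5 lost) and Ing4+/+ Ing5+/+ (wild-type). Ing4 and Ing5 encode related proteins of histone acetyltransferase complexes. The labels give a litter for each heart, 7 litters in all, but no somite count or other measure of stage, no strain and no deleted exon. Because the genes below fall as the embryo ages, their levels bear on whether hearts of a genotype were at an earlier or later stage. A difference in stage and a difference between genotypes at 1 stage cannot be told apart in these libraries.

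LIN28A and LIN28B are RNA-binding proteins that hold the let-7 family of microRNAs in check: they bind the loop of the let-7 precursors, where a GGAG motif is a main contact, and block their maturation. Mature let-7 in turn binds sites in the 3' untranslated regions (3'UTRs) of Lin28a, Lin28b and other early genes and lowers their output, so the pair form a switch that tips from LIN28 to let-7 as tissues mature. Among the genes repressed by let-7 are Trim71, an RNA-binding ubiquitin ligase first known as lin-41 in the nematode Caenorhabditis elegans, Hmga2, an architectural chromatin protein, and Igf2bp1 to Igf2bp3, which bind mRNAs including that of the growth factor Igf2. In mice most of these genes are high in the early embryo and fall towards birth.

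The mature let-7 sequences are shown because targets are mainly recognised through the seed, bases 2 to 8 from the 5' end, which is in capitals. The 9 mature 5p sequences of the family listed by RefSeq for the mouse (GRCm38.p6) all carried the seed GAGGUAG and differed outside it.
let-7a: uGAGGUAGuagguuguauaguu
let-7b: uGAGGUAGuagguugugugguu
let-7c: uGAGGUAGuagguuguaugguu
let-7d: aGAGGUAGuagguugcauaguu
let-7e: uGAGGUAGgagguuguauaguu
let-7f: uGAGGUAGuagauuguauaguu
let-7g: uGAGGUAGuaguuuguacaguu
let-7i: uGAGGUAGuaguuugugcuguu
miR-98: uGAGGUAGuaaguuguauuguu

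The precursors show where LIN28 makes contact. RefSeq lists 12 let-7 hairpins. Both arms were given for 11 of them, and 8 of these held GGAG between the arms. The same letters stood between the arms of 44 of 633 other mouse hairpins (7.0%). A hairpin with the motif (capitals) and a hairpin without it between the arms are given, both on the plus strand of GRCm38.p6, Mirlet7g at chr9:106178840-106178927 and Mirlet7c-2 at chr15:85706603-85706697.
Mirlet7g: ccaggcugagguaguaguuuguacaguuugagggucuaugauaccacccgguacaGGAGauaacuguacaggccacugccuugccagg
Mirlet7c-2: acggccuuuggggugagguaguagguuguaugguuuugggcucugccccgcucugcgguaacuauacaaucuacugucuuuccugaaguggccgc

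All 8 timing genes held at least 1 match to the let-7 seed in their longest annotated 3'UTR (GENCODE M21, GRCm38). The letters searched were CTACCTC, the complement of the seed, on the transcript strand. At least 1 match was found in 1879 of 20987 genes with an annotated 3'UTR (9.0%). Lin28b, Trim71, Hmga2 and Igf2bp1 each had 4 matches, Lin28a had 2, and Hmga1, Igf2bp2 and Igf2bp3 had 1 each. Only 12 of the 20987 genes (0.057%) had 4 or more. Longer 3'UTRs hold more matches, so each gene was set beside genes whose 3'UTR was of like length. Of 2413 genes with a 3'UTR near the 3014 bases of Hmga2, 16.1% had a match and 0.083% had at least 4. Of 3068 genes with a 3'UTR near the 1183 bases of Hmga1, 8.1% had a match. The list was drawn from genes known as let-7 targets, so these matches are a description of why they are grouped and not a result of the hearts. The match nearest the stop codon of each gene is given with 15 bases before it and 1 after, the match in capitals. A final a makes an eight-base match.
Lin28a (chr4:134005189-134005211, minus strand): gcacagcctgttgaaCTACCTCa
Lin28b (chr10:45381022-45381044, minus strand): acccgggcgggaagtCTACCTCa
Trim71 (chr9:114512472-114512494, minus strand): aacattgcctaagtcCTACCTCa
Hmga1 (chr17:27563277-27563299, plus strand): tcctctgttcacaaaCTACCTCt
Hmga2 (chr10:120364224-120364246, minus strand): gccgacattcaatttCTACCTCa
Igf2bp1 (chr11:95961778-95961800, minus strand): gctgtgcgaagtaaaCTACCTCa
Igf2bp2 (chr16:22059473-22059495, minus strand): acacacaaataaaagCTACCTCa
Igf2bp3 (chr6:49086787-49086809, minus strand): tgcatttttactcaaCTACCTCa

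The distance from the stop codon differed: 36 bases in Lin28b, 58 in Hmga2 and 166 in Trim71, against 909 in Lin28a and 1715 in Igf2bp1. The 4 matches of Trim71 were all eight-base matches. Of these, those at 3591 and 3617 bases from the stop codon lie past the end of the gene as RefSeq annotates it.

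**Figure D1:**
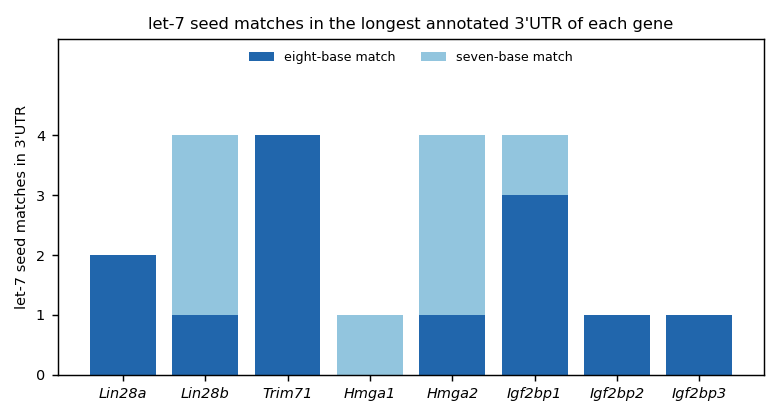
The bars give the number of let-7 seed matches in the longest annotated 3'UTR of each gene (vertical axis, count), dark blue for eight-base matches and light blue for matches of the 7 seed bases alone. Lin28b, Trim71, Hmga2 and Igf2bp1 reach 4, and Trim71 is the gene whose 4 matches are all eight-base matches.

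The libraries held 19753100 to 35664331 counted reads. On the first principal components (25.3, 14.7 and 12.3% of the variance) Ing4+/- Ing5+/+ 4, Ing4+/+ Ing5-/- 1 and Ing4+/- Ing5-/- 2 stood apart. As a check of the labels, Ing5 averaged 21.0 ± 2.75 CPM (counts scaled to library size, with TMM factors) in Ing4+/- Ing5-/-, 37.2 ± 3.70 in Ing4+/- Ing5+/+, 23.5 ± 4.48 CPM in Ing4+/+ Ing5-/- and 33.5 ± 3.46 CPM in wild-type hearts (SD, n = 4 each). Ing4 averaged 34.3 ± 1.90, 34.1 ± 1.85, 51.0 ± 7.31 and 39.5 ± 7.60 CPM in the same order of genotypes. Ing5 was called lower in Ing4+/- Ing5-/- against wild-type hearts (edgeR adjusted p = 0.0122). It was not called in Ing4+/+ Ing5-/- against wild-type hearts (-0.51 ± 0.12 on the log2 scale, edgeR adjusted p = 0.275). Ing4 was not called in Ing4+/- Ing5-/- or Ing4+/- Ing5+/+ against wild-type hearts (edgeR adjusted p = 0.553 and 0.963). Single hearts went against their labels: Ing5 was 29.3 CPM in the library labelled Ing4+/+ Ing5-/- 1, above the 28.9 CPM of wild-type 3. Ing4 was 28.2 CPM in the library labelled wild-type 2, below all 8 Ing4+/- hearts (32.0 to 36.3 CPM). Without either library 0 of 8 timing genes were called in each comparison. Whole-gene counts do not measure residual protein. The 8 cardiomyocyte markers summed to 26177 to 30122 CPM in Ing4+/- Ing5-/- and 26213.5 to 27915 CPM in Ing4+/- Ing5+/+ hearts. The range was 29169 to 31090 CPM in wild-type hearts. Ing4+/+ Ing5-/- 1 to 4 had 18426, 30113, 31525 and 27228 CPM. Against wild-type hearts 7 of 8 log2 fold changes were negative in Ing4+/- Ing5-/-, 8 in Ing4+/- Ing5+/+ and 6 in Ing4+/+ Ing5-/- hearts. In Ing4+/- Ing5-/- hearts 4 were negative against Ing4+/- Ing5+/+ and 3 against Ing4+/+ Ing5-/- hearts. None of the 8 was called between genotypes. In such bulk samples fewer cells that express a gene and less of its RNA per cell cannot be told apart.

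Chromatin and mRNA-binding members were abundant at this stage and the Lin28 genes were not. Per kilobase of gene length (RPKM, mean over the 16 hearts), Hmga1 stood at 190.3, Hmga2 at 83.7, Igf2bp2 at 64.9, Igf2bp3 at 48.7 and Igf2bp1 at 23.9. Lin28b stood at 3.87, Lin28a at 3.85 and Trim71 at 2.82 RPKM. On that scale Hmga1 ranked 308 and Trim71 10872 of the 15785 genes. The ranges of Lin28a (2.39 to 7.02 RPKM), Lin28b (2.89 to 4.93) and Trim71 (2.03 to 3.36) overlapped. Those of Hmga1 (156.9 to 221) and Hmga2 (71.1 to 99.98) did not. The Hmga1 level is uncertain, because Hmga1b, a near-identical copy, had 144 RPKM and reads of the 2 genes may have been split. Hmga2-ps1, a transcribed pseudogene of Hmga2, had 13.7 RPKM.

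The genes also differed in how much they varied. The coefficient of variation of the CPM over the 16 hearts was 31.9% for Lin28a, above that of 79.4% of all genes tested, and 5.33% for Igf2bp1, above that of 3.13%. It was 5.93% for Igf2bp2, 8.41% for Hmga2, 9.60% for Igf2bp3, 9.72% for Hmga1, 13.6% for Lin28b and 14.99% for Trim71. Lin28a had 202 to 751 counts per library, and at 202 counts the counting error is 7.04%.

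Lin28a, which acts on let-7 precursors mainly in the cytoplasm, was the member that differed most between genotypes. It had 11.0, 8.38, 8.32 and 13.9 CPM in Ing4+/- Ing5-/-, 13.0, 13.1, 11.7 and 14.1 in Ing4+/- Ing5+/+, 24.4, 12.6, 21.9 and 15.1 in Ing4+/+ Ing5-/-, and 11.9, 10.4, 13.6 and 11.1 in wild-type hearts. The 3 highest values of all 16 hearts belonged to Ing4+/+ Ing5-/- hearts and the 2 lowest to Ing4+/- Ing5-/- hearts, but the ranges of all 4 genotypes overlapped. Means were 10.4 ± 2.67 CPM in Ing4+/- Ing5-/-, 13.0 ± 0.970 CPM in Ing4+/- Ing5+/+, 18.5 ± 5.59 CPM in Ing4+/+ Ing5-/- and 11.7 ± 1.37 CPM in wild-type hearts (SD, n = 4 each).

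Lin28b, its paralog, was steadier. It had 15.6, 21.5, 16.8 and 20.9 CPM in Ing4+/- Ing5-/-, 20.3, 22.2, 20.7 and 26.6 in Ing4+/- Ing5+/+, 21.0, 17.6, 21.6 and 23.9 in Ing4+/+ Ing5-/-, and 22.6, 17.8, 23.6 and 21.999 in wild-type hearts. The 2 lowest hearts were Ing4+/- Ing5-/- hearts, and all genotypes overlapped. Trim71 had 12.5, 14.2, 10.6 and 14.8 CPM in Ing4+/- Ing5-/-, 14.4, 17.2, 16.3 and 15.2 in Ing4+/- Ing5+/+, 10.9, 12.4, 17.5 and 17.3 in Ing4+/+ Ing5-/-, and 17.1, 14.3, 14.6 and 15.5 in wild-type hearts. Its 4 lowest hearts were 2 Ing4+/- Ing5-/- and 2 Ing4+/+ Ing5-/- hearts, and 3 of these came from litter 1.

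**Figure D2:**
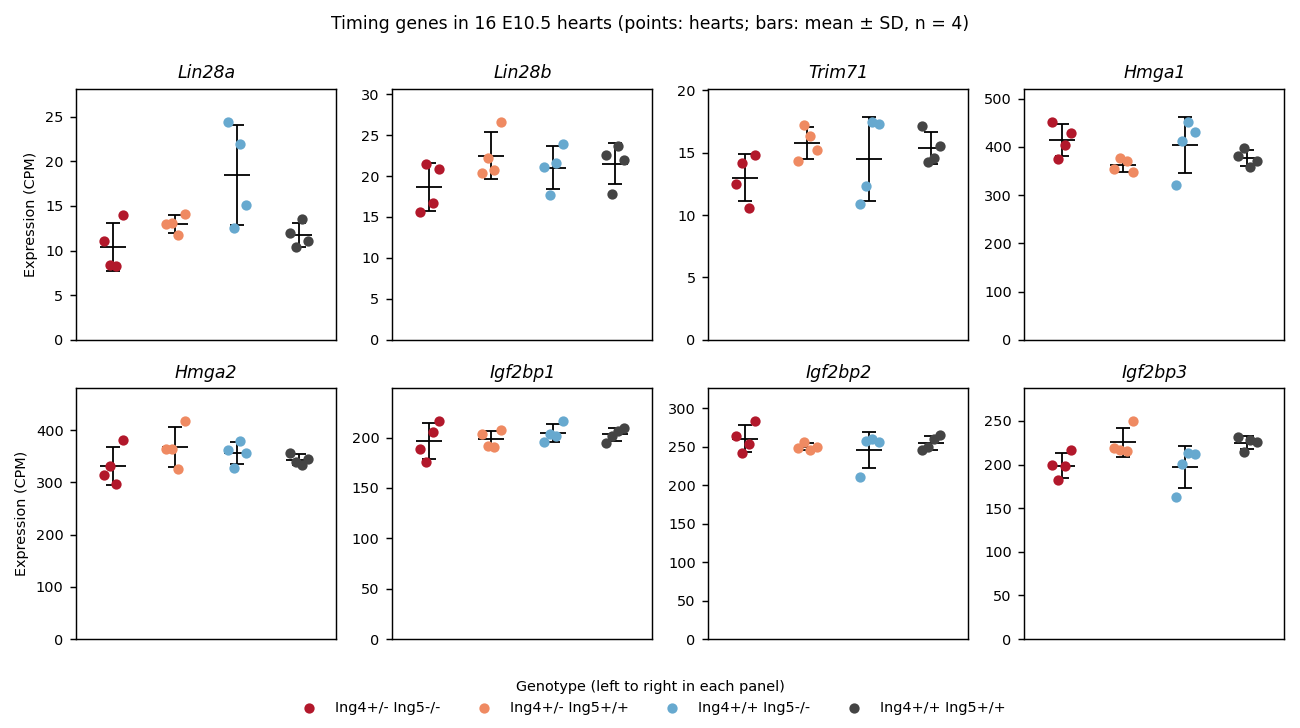
Each point is the expression of 1 heart in CPM (vertical axis, from 0), with the genotypes from left to right in the order of the legend, and the bar is the mean ± SD of 4 hearts. Lin28a spreads from 12.6 to 24.4 CPM in Ing4+/+ Ing5-/- hearts and lies between 8.32 and 14.1 CPM in the others, while Igf2bp1 stays between 175.7 and 216 CPM.

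The chromatin proteins of the list are Hmga1 and Hmga2. Hmga2 had 315, 331, 297 and 382 CPM in Ing4+/- Ing5-/-, 365, 363, 325 and 418 in Ing4+/- Ing5+/+, 361, 328, 378 and 357 in Ing4+/+ Ing5-/-, and 357, 339.9, 333 and 345 in wild-type hearts. The single highest heart was Ing4+/- Ing5+/+ 4, and the group ranges overlapped. Hmga1 averaged 414 ± 32.7, 362 ± 13.7, 404 ± 57.6 and 377 ± 17.0 CPM in Ing4+/- Ing5-/-, Ing4+/- Ing5+/+, Ing4+/+ Ing5-/- and wild-type hearts. It was the only member besides Igf2bp2 whose highest mean was in Ing4+/- Ing5-/- hearts.

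Of the IGF2 mRNA-binding proteins, Igf2bp1 and Igf2bp2 had the lowest coefficients of variation of the 8 genes. Igf2bp1 averaged 196.6 ± 18.0, 198.1 ± 8.58, 204 ± 8.86 and 203 ± 6.45 CPM in Ing4+/- Ing5-/-, Ing4+/- Ing5+/+, Ing4+/+ Ing5-/- and wild-type hearts, and Igf2bp2 averaged 260.6 ± 17.6, 249.8 ± 4.56, 246 ± 23.5 and 255 ± 9.21 CPM. The highest and lowest means differed 1.04-fold for Igf2bp1 and 1.06-fold for Igf2bp2. Igf2bp3 had 199, 182, 198 and 216 CPM in Ing4+/- Ing5-/-, 219.5, 217, 215 and 249.8 in Ing4+/- Ing5+/+, 163, 200.2, 214 and 212 in Ing4+/+ Ing5-/-, and 232, 215, 228 and 226 in wild-type hearts. Every Ing4+/+ Ing5-/- heart lay below every wild-type heart, by a margin of about 1 CPM between 213.7 and 214.8. For each of the 8 genes, genotypes next to each other in the order of their means overlapped.

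Ing4+/- Ing5-/- hearts were compared with wild-type hearts to ask whether the loss of 3 alleles changed the levels of these genes. No member was called: edgeR passed 0 of 8 at an adjusted p under 0.05, against 0.855% of all genes tested. DESeq2 and limma-voom also called 0 of 8. An unadjusted p under 0.05 was reached by 1 of 8 (11.4% of all genes), Igf2bp3 with a log2 fold change of -0.18 ± 0.082 (SE; edgeR adjusted p = 0.417). Of the 8 log2 fold changes 6 were negative, with a median of -0.11 against 0.0027 over all genes and a middle range of -0.10 to 0.13 over all genes. The values were -0.17 ± 0.19 for Lin28a, -0.20 ± 0.13 for Lin28b, -0.24 ± 0.15 for Trim71, -0.054 ± 0.083 for Hmga2 and 0.14 ± 0.088 for Hmga1. Lin28a ranged from -0.39 with litter as a block to -0.079 without Ing4+/- Ing5-/- 3. Hmga1 stood at 0.082 with the counts of its copy Hmga1b added. The 95% intervals of the fold change were 0.672 to 1.17 for Lin28a, 0.722 to 1.05 for Lin28b and 0.686 to 1.05 for Trim71. They were 0.854 to 1.09 for Hmga2, 0.968 to 1.248 for Hmga1, 0.877 to 1.07 for Igf2bp1, 0.921 to 1.13 for Igf2bp2 and 0.785 to 0.996 for Igf2bp3. Each interval but that of Igf2bp3 holds a fold of 1, so no change and falls as large as its lower bound are both within the error. In no member did the groups fail to overlap (10.2% of all genes).

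Ing4+/- Ing5-/- and Ing4+/- Ing5+/+ hearts differ in Ing5 on a background with 1 Ing4 allele lost. Again edgeR called 0 of 8 members (1.16% of all genes), as did DESeq2 and limma-voom, while 3 of 8 had an unadjusted p under 0.05 (13.9% of all genes). Lin28b differed by -0.27 ± 0.13 (edgeR adjusted p = 0.359), Igf2bp3 by -0.18 ± 0.082 (0.332) and Hmga1 by 0.19 ± 0.088 (0.329). The other values were -0.32 ± 0.19 for Lin28a, -0.28 ± 0.15 for Trim71, -0.15 ± 0.083 for Hmga2, -0.011 ± 0.068 for Igf2bp1 and 0.061 ± 0.071 for Igf2bp2. The median of the 8 was -0.17, against -0.0013 over all genes. In 0 of 8 members were the groups apart (10.1% of all genes). Hmga2-ps1 was lower in every Ing4+/- Ing5-/- heart, with 18.4, 15.9, 15.9 and 17.5 CPM against 22.9, 28.6, 19.2 and 20.2 CPM in Ing4+/- Ing5+/+ hearts (-0.43 ± 0.13, edgeR adjusted p = 0.117). It was named after its values were seen.

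Ing4+/- Ing5-/- and Ing4+/+ Ing5-/- hearts differ by 1 Ing4 allele without Ing5. Lin28a had the largest difference of any member here, 10.4 ± 2.67 CPM in Ing4+/- Ing5-/- against 18.5 ± 5.59 CPM in Ing4+/+ Ing5-/- hearts (SD, n = 4 each). The log2 fold change was -0.83 ± 0.19, a fold of 0.564 with a 95% interval of 0.429 to 0.742. With edgeR it did not pass over all genes (adjusted p = 0.377, unadjusted 0.000322), while the DESeq2 Wald test called it (adjusted p = 0.0296). Over all alternatives run the adjusted p ranged from 0.0296 to 0.999. By edgeR 0 of 8 members were called (0.00634% of all genes) and 1 of 8 had an unadjusted p under 0.05 (6.63% of all genes). DESeq2 called 1 of 8 and limma-voom 0. Over all genes DESeq2 called 19 in this comparison and edgeR 1, so DESeq2 was the more liberal test here. With litter as a block the log2 fold change of Lin28a was -0.52 (adjusted p = 0.999), and without the 3 libraries that stood apart it was -0.57 (0.910). Without the library labelled Ing4+/+ Ing5-/- 1, the heart with the highest value, it was -0.66. The other 7 members lay between -0.17 (Lin28b) and 0.083 (Igf2bp2), and the median of the 8 was -0.080 against -0.0039 over all genes. In 0 of 8 members were the groups apart (3% of all genes). Hmga2-ps1 was lower in every Ing4+/- Ing5-/- heart here too (-0.45 ± 0.13, adjusted p = 0.490).

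Markers of other cell types differed among the Ing4+/+ Ing5-/- hearts, and the epicardial sum was lowest on average in Ing4+/- Ing5-/- hearts. The 6 epicardial markers summed to 289 to 383 CPM in Ing4+/- Ing5-/- hearts and to 1106, 494, 369.7 and 296 CPM in Ing4+/+ Ing5-/- 1 to 4. All 6 had negative log2 fold changes in that comparison (median -0.73, 0 of 6 called). All 6 were also negative in Ing4+/- Ing5-/- against wild-type and against Ing4+/- Ing5+/+ hearts (median -0.42 in each, 0 of 6 called). The sums were 449 to 491 CPM in wild-type and 351 to 542 CPM in Ing4+/- Ing5+/+ hearts. The 8 endoderm and liver bud markers summed to 0.780 to 3.29 CPM in Ing4+/- Ing5-/- hearts and to 24.5, 13.4, 1.03 and 1.64 CPM in Ing4+/+ Ing5-/- 1 to 4. Ing4+/+ Ing5-/- 3 had 21.9 CPM of Lin28a with both sums low, and Ing4+/+ Ing5-/- 2 had 12.6 CPM with a high endoderm sum. Ing4+/- Ing5+/+ 2 and 4 had endoderm sums of 10.3 and 17.3 CPM with 13.1 and 14.1 CPM of Lin28a. The heart with the highest Lin28a, labelled Ing4+/+ Ing5-/- 1, was also the one with the low cardiomyocyte sum. Without Ing4+/+ Ing5-/- 1 and 2 the log2 fold change of Lin28a was -0.83 (edgeR adjusted p = 0.181). The part of these cell types in the Lin28a difference was not tested. Nor was their part in the differences of Ing4+/- Ing5-/- from wild-type and Ing4+/- Ing5+/+ hearts.

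Ing4+/+ Ing5-/- hearts were set against wild-type hearts for the loss of Ing5 alone. Lin28a averaged 18.5 ± 5.59 CPM in Ing4+/+ Ing5-/- and 11.7 ± 1.37 CPM in wild-type hearts, a log2 fold change of 0.65 ± 0.19 that edgeR did not call (adjusted p = 0.338; DESeq2 0.106, the lowest of all alternatives). Igf2bp3 was the member whose groups did not overlap, 1 of 8 against 4.74% of all genes (2.26% lower; -0.19 ± 0.082, edgeR adjusted p = 0.495). By edgeR, DESeq2 and limma-voom 0 of 8 members were called (edgeR 0.0127% of all genes), and 2 of 8 had an unadjusted p under 0.05 (9.59% of all genes). The other 6 members lay between -0.082 (Trim71) and 0.10 (Hmga1), and the median was -0.012 against 0.013 over all genes. No litter held both genotypes, so the litter block reaches this difference only through other genotypes, and with it Lin28a stood at 0.14 (adjusted p = 0.976). Lin28a stood at 0.49 without the library labelled Ing4+/+ Ing5-/- 1 and at 0.59 without that labelled wild-type 2. Igf2bp3 stood at -0.11 without the library labelled Ing4+/+ Ing5-/- 1 and at -0.36 with litter as a block. The epicardial markers summed to 449 to 491 CPM in wild-type hearts and the endoderm markers to 0.721 to 2.88 CPM. Their part in the Lin28a and Igf2bp3 differences was not tested.

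Ing4+/- Ing5+/+ hearts, with 1 Ing4 allele lost, were set against wild-type hearts for the loss of that allele. The 8 log2 fold changes ran from -0.058 (Hmga1; -0.12 with Hmga1b added) to 0.14 (Lin28a), with a median of 0.021 against 0.0053 over all genes. None was called by edgeR, DESeq2 or limma-voom (edgeR 0% of all genes), and none had an unadjusted p under 0.05 (4.73% of all genes). In 0 of 8 members were the groups apart (3.78% of all genes). The 95% interval of the fold change was 0.838 to 1.45 for Lin28a and 0.884 to 1.08 for Igf2bp1.

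**Figure D3:**
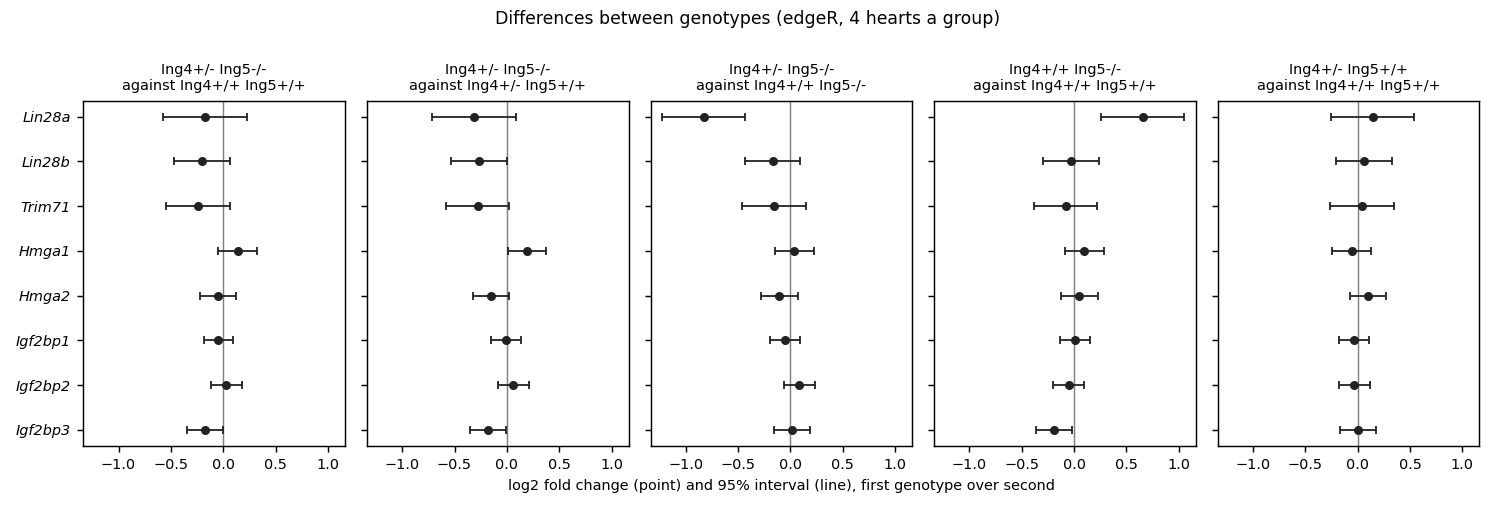
Points are log2 fold changes of the 8 genes in each of 5 comparisons (horizontal axis, first genotype over second, 4 hearts each) and lines are 95% intervals from edgeR. Lin28a stands apart from 0 at -0.83 in Ing4+/- Ing5-/- against Ing4+/+ Ing5-/- hearts and at 0.65 in Ing4+/+ Ing5-/- against wild-type hearts; the interval of Igf2bp3 also leaves out 0 in 3 panels and those of Lin28b and Hmga1 in 1, and none of these passed adjustment over all genes.

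Whether losing 1 Ing4 allele acts differently with and without Ing5 was tested as an interaction, the difference of Ing4+/- Ing5-/- from Ing4+/+ Ing5-/- hearts minus that of Ing4+/- Ing5+/+ from wild-type hearts. For Lin28a the first difference was -0.83 and the second 0.14, and the interaction was -0.97 ± 0.27 (unadjusted p = 0.00182, edgeR adjusted p = 0.830; DESeq2 0.277). With litter as a block it was -0.56. It was the only member of 8 with an unadjusted p under 0.05 (5.88% of all genes). By edgeR, DESeq2 and limma-voom 0 of 8 were called (edgeR 0% of all genes), and the median was -0.11 against -0.0076 over all genes.

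The labels number the litters, and differences between littermates are free of differences between litters. Litters 4 and 6 each held 1 Ing4+/- Ing5-/- and 1 wild-type heart. The 7 members other than Hmga1 were lower in the Ing4+/- Ing5-/- heart in both litters. The log2 differences were -0.50 and -0.41 for Lin28a, -0.071 and -0.39 for Lin28b, -0.27 and -0.55 for Trim71, and -0.35 and -0.19 for Igf2bp3. Hmga1 stood at -0.023 and 0.12. Litters 4, 6 and 7 each held 1 Ing4+/- Ing5-/- and 1 Ing4+/- Ing5+/+ heart. Lin28a, Lin28b, Trim71, Hmga2 and Igf2bp3 were lower in the Ing4+/- Ing5-/- heart in all 3 litters, Hmga2 by -0.14, -0.13 and -0.13 on the log2 scale. Hmga1, Igf2bp1 and Igf2bp2 were higher in 2 of 3 litters. The hearts are those of the comparisons above, so these signs are not independent of them, and they carry no test. The share of all genes with like signs was not counted. The Ing4+/- Ing5-/- heart of litter 4 was Ing4+/- Ing5-/- 2, which stood apart over all genes. Its 10 erythroid markers summed to 48777 CPM, against 11835 CPM in its wild-type and 5999 CPM in its Ing4+/- Ing5+/+ littermate.

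Set against Ing4+/+ Ing5-/- littermates in litters 1 and 7, Lin28a was lower in the Ing4+/- Ing5-/- heart in both. In litter 1 it had 11.0 CPM against 24.4 and 12.6 CPM in the 2 Ing4+/+ Ing5-/- hearts, and in litter 7 it had 13.9 against 15.1 CPM. The Ing4+/+ Ing5-/- heart with 21.9 CPM came from litter 2, which held no other heart. The large Lin28a values thus lie in litters 1 and 2, where no wild-type and no Ing4+/- Ing5+/+ heart was sequenced.

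**Figure D4:**
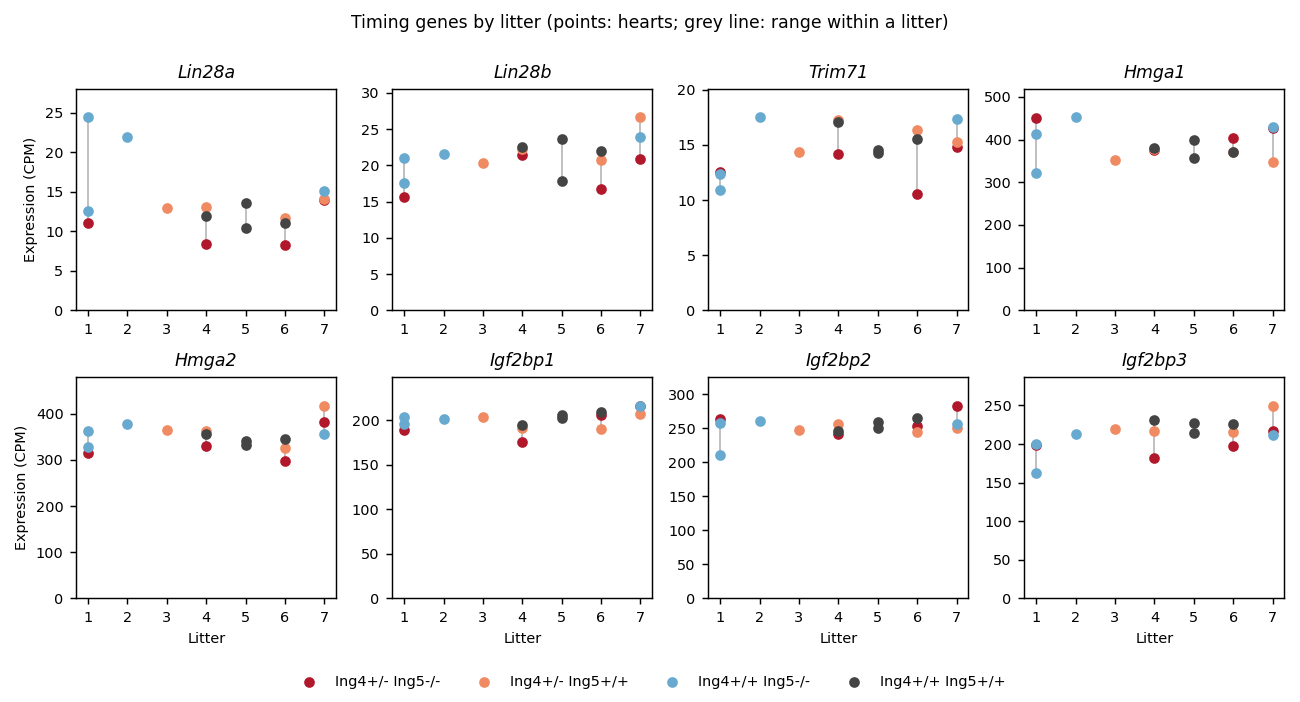
Expression in CPM (vertical axis, from 0) is plotted by litter (horizontal axis), each point a heart coloured by genotype, with a grey line over the range within a litter. Lin28a spans 11.0 to 24.4 CPM within litter 1, and in litters 4 and 6 the Ing4+/- Ing5-/- heart is the lowest for Lin28a, Trim71, Hmga2 and Igf2bp3.

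The members varied together in part. Over the 16 hearts, 28 pairs of members were correlated on log2 CPM, with 100000 permutations each and adjustment over the 28. Lin28b and Hmga2 had Pearson's r = 0.72 (adjusted permutation p = 0.0416) and Spearman's rho = 0.55 (adjusted 0.128). Without the 2 hearts farthest from the median of Lin28b r was 0.55. Hmga1 and Igf2bp2 had r = 0.67 (adjusted permutation p = 0.0416) and rho = 0.56 (0.128), and r = 0.69 without the 2 farthest hearts. Lin28a and Hmga2 had r = 0.60 (adjusted permutation p = 0.0778) and rho = 0.75 (0.0297), and r = 0.68 without the 2 hearts of highest Lin28a. None of the pairs passed on both measures. After subtracting genotype means r was 0.66 for Lin28b with Hmga2, 0.79 for Hmga1 with Igf2bp2 and 0.63 for Lin28a with Hmga2, and after subtracting litter means it was 0.66, 0.75 and 0.66. Lin28a and Lin28b themselves had r = 0.38 (adjusted 0.317) and rho = 0.54 (0.128). The points share library size and, in part, litter.

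**Figure D5:**
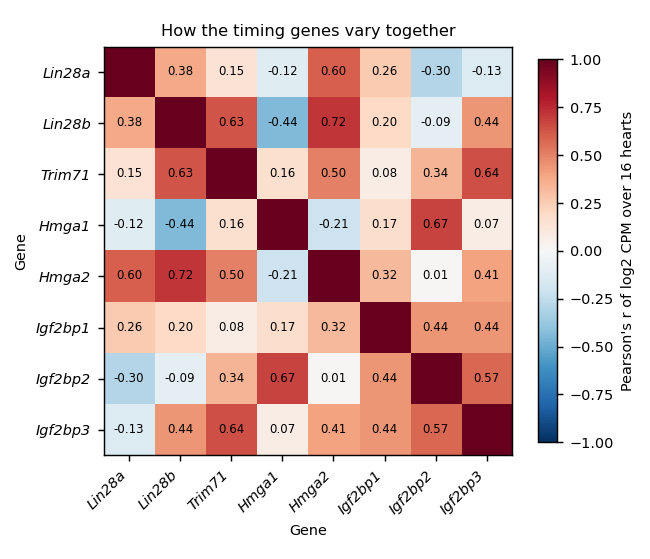
Each cell gives Pearson's r of the log2 CPM of 2 members over the 16 hearts, red for positive and blue for negative values, with the genes on both axes. Lin28b with Hmga2 (0.72), Hmga1 with Igf2bp2 (0.67) and Igf2bp3 with Trim71 (0.64) are the highest, and Lin28b with Hmga1 (-0.44) is the lowest.

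The genes whose levels followed a member most closely were sought among 11483 genes with a mean of at least 5 CPM, as a description over 16 hearts. For Lin28a they were Ephb2, an ephrin receptor (r = 0.92), Sfrp5, a secreted WNT antagonist (0.92), and Fgfr2, a fibroblast growth factor receptor (0.84). For Lin28b they were Nr6a1, an orphan nuclear receptor of the early embryo (0.84), Dock9 (0.84) and Dhx36 (0.82), and Nr6a1 also held 8 let-7 seed matches, the most of all genes. For Trim71 they were Greb1 (0.85), Zhx1 (0.84) and Map2k6 (0.83). Hmga1 went with Map2k1 (0.90) and with the glycolytic enzymes Eno1 (0.90) and Pgam1 (0.88), and Hmga2 with Zbtb26 (0.88), Epb41l5 (0.86) and Ubxn7 (0.84). Igf2bp1 went with Clip2 (0.82), Cgnl1 (0.82) and Nes (0.80), Igf2bp2 with Gata2 (0.91), Rps6ka2 (0.91) and Tspan18 (0.89), and Igf2bp3 with Prepl (0.96), Mef2c, a heart transcription factor (0.95), and Pcgf3 (0.95).

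The let-7 microRNAs themselves were not measured by these libraries. The table lists 19 let-7 and related precursor genes, of which 8 had 0 reads in every library. The others had 120 reads in all, at most 20 in a library, for Mirlet7d in Ing4+/+ Ing5-/- 1. Of 21 listed host and precursor genes only Mir99ahg, the host of a let-7c precursor, passed the filter, with 1.22 ± 0.198 CPM in Ing4+/- Ing5-/- and 1.12 ± 0.337 CPM in wild-type hearts (0.13 ± 0.36, edgeR adjusted p = 0.929).

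The machinery that makes and uses let-7 was not called. None of 23 genes of let-7 maturation and silencing was called in any of the 5 comparisons or the interaction by edgeR, among them Drosha, Dicer1, the uridylyl transferases Tut4 and Tut7 and the exonuclease Dis3l2. The medians ran from -0.034 to 0.0073. In Ing4+/- Ing5-/- against wild-type hearts the most abundant, Ddx5, a helicase of the microprocessor, averaged 728 ± 41.5 and 689 ± 38.1 CPM (0.079 ± 0.069, adjusted p = 0.725), and Ddx17 averaged 607 ± 20.7 and 553 ± 32.9 CPM (0.13 ± 0.078, 0.544). None of 26 other reported let-7 targets was called either, with medians from -0.028 to 0.024. Ccnd2, cyclin D2, averaged 812 ± 47.3 CPM in Ing4+/- Ing5-/- and 689 ± 21.5 CPM in wild-type hearts (0.24 ± 0.093, edgeR adjusted p = 0.318), and Map4k4, a kinase, averaged 287 ± 13.9 and 290.4 ± 11.6 CPM (-0.016 ± 0.059, 0.949).

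The medians of genes with let-7 seed matches in the 3'UTR are given as a description, without a test, since these genes also have longer 3'UTRs. In Ing4+/- Ing5-/- against wild-type hearts the median log2 fold change was -0.012 over 1470 tested genes with at least 1 match, -0.025 over 186 with at least 2 and -0.044 over 26 with at least 3, against 0.00082 over 12473 with none. Against Ing4+/- Ing5+/+ hearts the same medians were -0.027, -0.041 and -0.086, against -0.0016. They ran the other way in Ing4+/- Ing5+/+ against wild-type hearts, at 0.016, 0.030 and 0.055 against 0.0037. The same Ing4+/- Ing5+/+ hearts enter both of these comparisons, on opposite sides, so the opposite signs are not independent. In Ing4+/+ Ing5-/- against wild-type hearts they were -0.0022, 0.0051 and -0.0030, against 0.0086. For Ing4+/- Ing5-/- against Ing4+/+ Ing5-/- hearts they were -0.0095, -0.017 and -0.024, against -0.00011. The sets are nested, and that with at least 3 matches includes Lin28b, Trim71, Hmga2 and Igf2bp1. The share called was 0.952% with at least 1 match and 0.938% with none in the first of these comparisons, and 1.5% and 1.24% against Ing4+/- Ing5+/+ hearts. Of the 12 genes with 4 or more matches 11 were tested, and Trim6, a ubiquitin ligase with 6 matches, was the only one called: it fell by 0.53 on the log2 scale in Ing4+/- Ing5-/- against Ing4+/- Ing5+/+ hearts (edgeR adjusted p = 0.0231).

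Other genes that change with age were counted beside the timing genes. Of 22 heart genes that rise with maturation 0 were called in each comparison. Their median was 0.026 in Ing4+/- Ing5-/- against wild-type, 0.093 against Ing4+/- Ing5+/+ and 0.073 against Ing4+/+ Ing5-/- hearts. In the same order 14, 16 and 16 of 22 values were positive. The median was -0.052 in Ing4+/+ Ing5-/- and -0.10 in Ing4+/- Ing5+/+ against wild-type hearts, with 15 and 16 of 22 values negative. In the interaction it was 0.18, with 18 of 22 values positive. Medians over all genes lay between -0.0076 and 0.013. Atp2a2, the calcium pump of the sarcoplasmic reticulum, averaged 2523 ± 248 CPM in Ing4+/- Ing5-/- and 2491 ± 157 CPM in wild-type hearts (0.018 ± 0.10, edgeR adjusted p = 0.968), and Csrp3, a muscle LIM protein, averaged 561 ± 59.1 and 562 ± 41.1 CPM (-0.0024 ± 0.087, 0.996). Of 12 early heart genes, 1 fell in Ing4+/- Ing5-/- against Ing4+/- Ing5+/+ hearts and 0 were called elsewhere. It was Hcn4, the pacemaker channel of the early heart tube and inflow tract, with 68.5, 38.9, 50.02 and 68.0 CPM in Ing4+/- Ing5-/- and 100.6, 102, 93.2 and 93.1 CPM in Ing4+/- Ing5+/+ hearts (-0.79 ± 0.17, adjusted p = 0.0395). Every Ing4+/- Ing5-/- heart lay below every Ing4+/- Ing5+/+ heart. Of all genes tested 1.16% were called in that comparison, and in 10.1% the groups did not overlap. Of 19 early embryo genes 9 were tested and 0 called. Their median was 0.30 in Ing4+/- Ing5-/- against wild-type hearts, against 0.0027 over all genes. Of these 9 values 7 were positive and 2 negative. The summed level of all 19 was 80.6 ± 7.24 CPM in Ing4+/- Ing5-/- and 80.7 ± 3.79 CPM in wild-type hearts. Tcf7l1 and Dnmt3b, with means of 40.5 and 17.0 CPM over the 16 hearts, weigh most in this sum. The sum therefore does not show that each gene was unchanged. Dnmt3b, a de novo DNA methyltransferase, averaged 18.3 ± 1.23 and 16.6 ± 1.11 CPM in these genotypes (0.15 ± 0.10, edgeR adjusted p = 0.628). Tcf7l1, a WNT pathway transcription factor, averaged 38.97 ± 3.62 and 43.01 ± 6.51 CPM (-0.14 ± 0.11, edgeR adjusted p = 0.690).

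Of 14 fetal growth genes, Igf1, an insulin-like growth factor, was the only one called. It fell in Ing4+/- Ing5-/- against Ing4+/- Ing5+/+ hearts, with 47.1, 49.8, 50.9 and 59.4 CPM in Ing4+/- Ing5-/- and 75.2, 62.4, 63.6 and 80.5 CPM in Ing4+/- Ing5+/+ hearts (-0.44 ± 0.098, edgeR adjusted p = 0.0280). The groups did not overlap (10.1% of all genes tested, of which 1.16% were called). The median of the list was -0.052 in that comparison and -0.057 in Ing4+/- Ing5-/- against wild-type hearts. Igf1 averaged 61.5 ± 4.68 CPM in wild-type hearts, between these 2 genotypes. Against wild-type it differed by -0.25 ± 0.098 in Ing4+/- Ing5-/- and 0.20 ± 0.098 in Ing4+/- Ing5+/+ hearts. Neither was called (edgeR adjusted p = 0.324 and 0.963).

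Blood and immune markers also varied between the hearts. The 10 erythroid markers summed to 7815 to 48777 CPM in Ing4+/- Ing5-/-, 4833 to 19584 in Ing4+/- Ing5+/+, 5619.8 to 33430 in Ing4+/+ Ing5-/- and 8898 to 11835 CPM in wild-type hearts. The ranges overlapped and 0 of 10 were called in any comparison. The 9 macrophage markers summed to 39.1 to 60.7 CPM in Ing4+/- Ing5-/-, 12.9 to 20.5 in Ing4+/- Ing5+/+, 18.6 to 51.8 in Ing4+/+ Ing5-/- and 9.83 to 16.05 CPM in wild-type hearts. In Ing4+/- Ing5-/- hearts 8 of 9 were called higher against wild-type, 2 of 9 against Ing4+/- Ing5+/+ and 0 of 9 against Ing4+/+ Ing5-/- hearts. The shares of all genes called in either direction were 0.855%, 1.16% and 0.00634% in the same order. In Ing4+/+ Ing5-/- against wild-type hearts all 9 values were positive (median 1.94) and 0 were called. Of 6 primordial germ cell markers (such cells express Lin28a in the embryo) 4 were tested. In Ing4+/- Ing5-/- against wild-type hearts 1 was called higher, but 2 values were positive and 2 negative, with a median of -0.021. The summed level was 10.3 to 14.8 CPM in Ing4+/- Ing5-/- and 6.01 to 9.04 CPM in wild-type hearts, and Ddx4 made up most of it in Ing4+/- Ing5-/- hearts (7.72 to 12.2 CPM, against 2.24 to 5.47 CPM in wild-type hearts). With the haemoglobin level as a covariate, chosen after seeing the data, the Lin28a difference between Ing4+/- Ing5-/- and Ing4+/+ Ing5-/- hearts was -0.73 and 0 of 8 members were called in any comparison. The part of macrophages and germ cells was not tested.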

How the data were processed

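Gene expression was measured by RNA sequencing of 16 embryonic hearts. Per the labels' protocols total RNA was isolated with a column kit and made into stranded libraries. The authors deposited unnormalized whole-number counts for each gene, in 1 table for the series and 16 single-sample tables with equal values. Per the submitters' processing notes bcl2fastq, featureCounts and the mm10 build were used, with no versions. Aligner and annotation: not given in the sources used here. For RPKM the gene length that the authors deposited (other) was used. Symbols were matched for 25275 IDs (93.0%).

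edgeR 4.0.16 in R 4.3.3 fitted a robust quasi-likelihood model of 4 genotype means to all 16 libraries, after its filter on low counts (15785 genes kept) and TMM scaling (0.967 to 1.08). Genes were called where the p-value, adjusted by Benjamini and Hochberg over the whole table, was under 0.05. The biological coefficient of variation was 0.159. Each library is a separate heart, and hearts of a genotype differed beyond counting error (chi-square over its degrees of freedom 6.39 to 102). The model was tested on simulated data. Alternatives were DESeq2 1.42.0, limma-voom (limma 3.58.1), DESeq2 size factors, other filters, only the groups compared, litter or replicate block, Y-linked or haemoglobin levels, and leaving out libraries. Counts of Hmga1 with Hmga1b and of Hmga2 with Hmga2-ps1 were also summed.

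The members and lists were chosen with earlier results of these data known. Besides the members, called list genes, the most abundant where none was called, and the 3 genes closest to each member were named; Trim6, Hmga2-ps1 and Nr6a1's matches were named after their values were seen. Sequences came from RefSeq (GRCm38.p6) and GENCODE M21.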

Additional observations from a re-analysis of the deposited data

Results flagged for a closer look

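Of 32 groups of 4 hearts (8 genes in 4 genotypes), 2 held a heart whose gap to the nearest of the others exceeded the critical value of Dixon's test, and chance alone gives about 1 in 20. Igf2bp2 was 211 CPM in the library labelled Ing4+/+ Ing5-/- 1, against 256 to 260.3 CPM in the other 3 hearts of that genotype. Igf2bp3 was 249.8 CPM in Ing4+/- Ing5+/+ 4, against 215 to 219.5 CPM in the others. Each of these libraries also lay far out on a principal component of all genes. The cause was not tested.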

How the results depend on the processing

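Each of the 6 counts of called members stayed at 0 of 8 under every alternative but one: the DESeq2 Wald test called 1 member in Ing4+/- Ing5-/- against Ing4+/+ Ing5-/- hearts, Lin28a (adjusted p = 0.0296). Leaving out each library in turn gave 0 throughout. Of 1480 log2 fold changes of single members under alternatives, 1448 moved by less than 1 SE, 31 moved further and 1 became called. Among uncalled values 66 changed sign. Without the library labelled Ing4+/+ Ing5-/- 1, Hmga1 stood at -0.060 and Igf2bp3 at -0.071 in Ing4+/- Ing5-/- against Ing4+/+ Ing5-/- hearts, in place of 0.037 and 0.012; the cause was not tested. Over all genes, 135 were called in Ing4+/- Ing5-/- against wild-type hearts, with 325 by DESeq2, 78 by limma-voom and a range of 15 (litter as a block) to 465 (only the groups compared). The other counts over all genes were 183 (72 without Ing4+/- Ing5-/- 2 to 523 without Ing4+/+ Ing5-/- 1 and 2) against Ing4+/- Ing5+/+ and 1 (0 to 19 by DESeq2) against Ing4+/+ Ing5-/- hearts. They were 2 (0 to 43 by DESeq2) for Ing4+/+ Ing5-/- and 0 (0 to 5 by DESeq2) for Ing4+/- Ing5+/+ against wild-type hearts, and 0 (0 to 7 by DESeq2) for the interaction. Only the groups compared gave no interaction value. Replicate numbers did not pair the hearts: residuals of same-numbered hearts correlated above 0.1 in 5 of 24 pairs (median 0.020), and 5 of 16 hearts correlated best with their own number. With the replicate block 0 of 8 members were called in each comparison, and Lin28a stood at -0.82 (adjusted p = 0.349) in Ing4+/- Ing5-/- against Ing4+/+ Ing5-/- hearts. Lin28a, Lin28b and Trim71 had 202 to 832 counts per library, which limits their precision.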
